A study of Mus musculus with 10 samples.

Results

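The genes described here are 10 that carry lipids in lipoproteins, release fatty acids from these, export sterol from the cell or store it: Apoe, Apoc1, Apoc2, Apoc4, Lpl, Abca1, Abcg1, Plin2, Soat1 and Ch25h. They were listed by name and role, with earlier results of these data known, and no threshold on a measured value decided which are members. The deposited table has 52181 gene entries, of which 16620 held a UMI (a unique molecular identifier, which marks 1 captured RNA molecule), and all 10 genes were among these. The study isolated macrophages and microglia, phagocytes that live in nervous tissue or enter it from the blood, from mouse retina and optic nerve and sequenced single cells in droplets. The mice were Wildtype, of both sexes and of the strain written 129S1/SvlmJ in the labels. The labels set P56 (postnatal day 56) beside the strain, whereas the design text gives an age of 10 weeks at collection. The 4 groups are injured optic nerve (libraries 1 and 3), uninjured optic nerve (libraries 2 and 4), injured retina (pools 1+2 and 3+4) and uninjured retina (libraries 5 and 6). Injured tissue had an optic nerve crush, which damages the axons of retinal ganglion cells, at 8 weeks and was taken 2 weeks later, and uninjured tissue had no treatment. The labels list 4 injured retina samples, but the table holds them as 2 pools, so that each group has 2 libraries. How many animals stand behind a library, and how the cells were enriched, is not given in the sources used here, so p-values measure only the spread between these libraries, which may be technical.

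Phagocytes that take up myelin or dying cells receive more cholesterol than they can break down. They pass it to apolipoprotein E particles through the transporters ABCA1 and ABCG1, or esterify it with SOAT1 and keep it in lipid droplets coated by perilipin 2. Oxysterols, among them the 25-hydroxycholesterol made by CH25H, activate the LXR nuclear receptors, which switch on Abca1, Abcg1, Apoe, Lpl and the apolipoprotein genes beside Apoe, and oxysterols also hold back the making of new sterol. In the central nervous system astrocytes are the main makers of Apoe, and microglia raise it in many states of injury and degeneration.

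All 10 are protein-coding genes, and their positions are those of GRCm38 with GENCODE M21. Apoe, Apoc1, Apoc4 and Apoc2 are neighbours on the minus strand of chromosome 7: Apoe lies at chr7:19696109-19699188, Apoc1 at chr7:19689481-19692660, Apoc4 at chr7:19678083-19681479 and Apoc2 at chr7:19671579-19677941. Abca1 (chr4:53030787-53159895), Plin2 (chr4:86648386-86670060), Soat1 (chr1:156424525-156474331) and Ch25h (chr19:34473778-34475164) also lie on the minus strand. Lpl (chr8:68880491-68907448) and Abcg1 (chr17:31057675-31117988) lie on the plus strand. Whether reads were counted by strand is not given in the sources used here, so Ch25h, which overlaps an opposite-strand noncoding gene with 21 UMIs in the table, is uncertain to that extent. Apoc2 and Apoc4 both overlap Gm44805, a protein-coding gene on the same strand that held 0 UMIs. How reads in such an overlap were counted is not given either, so low counts of Apoc2 and Apoc4 are uncertain to that extent.

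RefSeq promoter sequences (assembly GRCm38.p6, 250 bases before to 50 from the annotated start) were taken for 7 of the 10 genes; those of Apoc1, Lpl and Abcg1 are not shown. They were searched on both strands for the LXR element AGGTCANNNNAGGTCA and its relaxed form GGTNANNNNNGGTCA, for the E-box CACGTG that sterol regulators and MITF-family factors can read, for the PU.1 letters GAGGAAGT and for the AP-1 letters TGANTCA. Shown are Apoe, the gene with the most UMIs, and Abca1 and Plin2, whose promoters held a match. All 3 read 5′ to 3′ on the minus strand, and capitals mark the matches.
Apoe promoter, chr7:19699139-19699438: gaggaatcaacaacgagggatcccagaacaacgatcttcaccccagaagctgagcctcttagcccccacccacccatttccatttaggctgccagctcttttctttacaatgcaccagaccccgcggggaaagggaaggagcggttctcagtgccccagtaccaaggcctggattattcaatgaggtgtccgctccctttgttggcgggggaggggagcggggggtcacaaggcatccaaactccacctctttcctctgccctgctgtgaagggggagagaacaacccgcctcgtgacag
Abca1 promoter, chr4:53159846-53160145: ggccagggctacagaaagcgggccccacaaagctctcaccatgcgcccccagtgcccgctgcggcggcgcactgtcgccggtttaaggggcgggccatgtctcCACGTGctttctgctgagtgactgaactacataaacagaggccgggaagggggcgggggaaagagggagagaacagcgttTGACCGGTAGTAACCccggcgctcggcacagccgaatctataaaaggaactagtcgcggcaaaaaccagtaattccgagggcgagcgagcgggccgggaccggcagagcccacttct
Plin2 promoter, chr4:86670010-86670309: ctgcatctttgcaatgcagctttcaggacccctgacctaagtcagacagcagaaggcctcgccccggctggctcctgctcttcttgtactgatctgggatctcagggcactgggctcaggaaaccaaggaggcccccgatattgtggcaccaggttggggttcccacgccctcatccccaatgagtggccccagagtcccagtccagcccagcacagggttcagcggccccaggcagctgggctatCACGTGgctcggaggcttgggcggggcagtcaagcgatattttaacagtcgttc
In Abca1, which encodes the transporter that loads cholesterol onto apolipoproteins, the relaxed LXR letters lie from -67 to -53 relative to the start, read on the other strand, and the E-box lies from -147 to -142. In Plin2, which encodes the lipid droplet coat, the E-box runs from -4 to 2. The relaxed LXR letters occur in 68 of 32851 promoters of the same length (0.207%), the full ones in 0.0152%, the E-box in 7.15%, the PU.1 letters in 3.20% and the AP-1 letters in 7.81%. Apoe held no match, and a match or its absence describes these letters in this window only.

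The table held 7920570 UMIs in 1168 cells. Injured optic nerve gave 146 and 682 cells, uninjured optic nerve 103 and 28, injured retina 109 and 57, and uninjured retina 31 and 12. Library totals were 318715 and 5234954 UMIs in injured optic nerve, 351333 and 84121 in uninjured optic nerve, 1420930 and 310892 in injured retina, and 142787 and 56838 in uninjured retina. Median UMIs per cell lay between 1078 and 12989, the highest value being that of injured retina pool 1+2. All 10 macrophage and microglia markers held UMIs in every library, with a summed level of 13778 to 32267 CPM (the UMIs of a gene for every 1000000 UMIs of the library). Other cells were present too: T and NK cell-like cells made up 20.2% and 42.1% of the injured retina pools, and oligodendrocyte-like cells 9.59% and 7.18% of injured and 25.2% and 14.3% of uninjured optic nerve. Border macrophage-like cells made up 6.16% and 4.84% of injured and 42.7% and 3.57% of uninjured optic nerve. The last 24183 entries of the table held 0 UMIs for uninjured retina and some for the other groups, so its gene annotation or merging differed. All 10 genes lie outside those entries, but crush in the retina and that difference cannot be told apart. The same limit holds for the 2 other comparisons that use uninjured retina: the tissue difference in the response to crush, and uninjured nerve against uninjured retina. Optic nerve was deposited as ln values and retina as raw counts, so tissue and form of deposit cannot be told apart either. 2 barcodes were shared between libraries.

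Apoe rose after crush in the optic nerve. It had 61114 and 97546 CPM in injured optic nerve libraries 1 and 3, against 21239 and 15418 CPM in uninjured libraries 2 and 4. Both injured libraries lay above both uninjured ones. The share of all genes with such an order is not given here. For this and the other genes, groups that do not overlap therefore describe these libraries and are not read as support. The means were 79330.2 ± 25761 CPM in injured and 18329 ± 4116 CPM in uninjured optic nerve (SD, n = 2 each), a 4.33-fold difference. On the mean over cells of the deposited ln values, where each cell counts the same, the difference was 3.09 ± 0.38 (SE; limma, adjusted p = 0.00051 over 5298 genes). It stayed called with any 1 of the 8 libraries left out (2.31 to 3.87), but not without the filter on rare genes (limma, adjusted p = 0.098). On UMIs summed per library, which weigh deep cells more, edgeR gave a log2 fold change of 2.36 and did not call it (adjusted p = 0.11). Of the 6 settings on the log2 scale (edgeR, DESeq2 and limma on log2 CPM), 2 called Apoe. A level summed over a library cannot tell more cells with a gene from more of its RNA per cell, and shares of cells are therefore given further on.

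**Figure D1:**
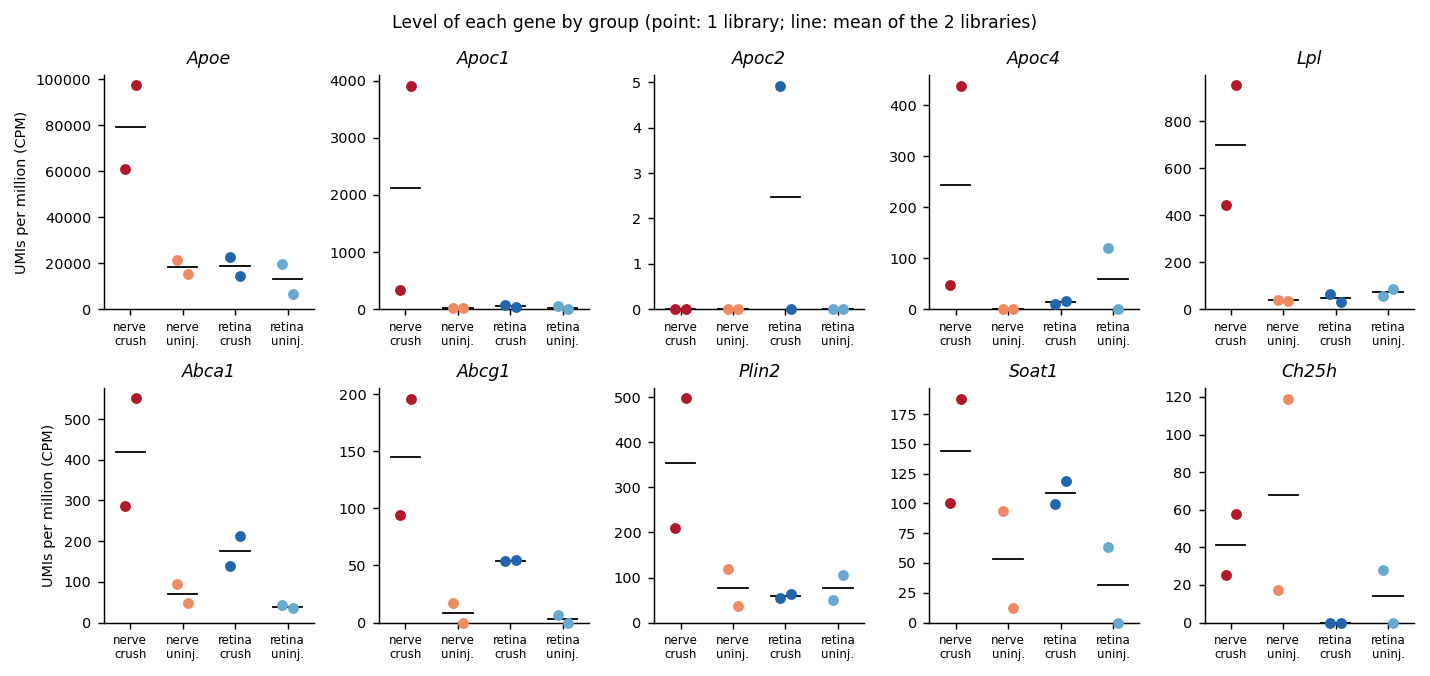
Level in CPM (linear axes) of each gene in the 4 groups; each point is 1 library and each line the mean of 2 libraries. Apoe reached 61114 and 97546 CPM in injured optic nerve and at most 22927 CPM in any other library, and Apoc1, Lpl, Abca1, Abcg1 and Plin2 also had their 2 highest values in injured optic nerve.

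Apoc1 and Apoc4, which encode small apolipoproteins of lipid-rich particles, were at or near 0 in the uninjured optic nerve. Apoc1 had 345 and 3910.4 CPM in injured optic nerve libraries 1 and 3, against 17.1 and 23.8 CPM in uninjured optic nerve, where both libraries together held 8 UMIs. It rose: the mean ln value was 1.50 ± 0.29 higher (limma, adjusted p = 0.019). Library 3 weighed most in its size: the difference was 0.72 (limma, adjusted p = 0.0032) without injured library 3 and 2.29 (adjusted p = 7.7e-11) without injured library 1. The call was lost without uninjured library 2 (limma, adjusted p = 0.20) or 4 (adjusted p = 0.12), and without retina pool 1+2 or 3+4, which share the estimate of spread (adjusted p = 0.059 and 0.058). By edgeR on recovered counts Apoc1 was called as well (log2 fold change 7.09, adjusted p = 0.041), with 8 UMIs on the uninjured side. Over all settings it was called in 8 of 14 on mean ln values and in 4 of 6 on the log2 scale.

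Apoc4 had 47.1 and 438 CPM in injured optic nerve (15 and 2292 UMIs), against 0 UMIs in both uninjured libraries. Set against a limit of 3 counts over the uninjured group (6.89 CPM), the summed injured level was at least 60.3-fold higher and that of injured library 1 alone at least 6.83-fold higher, which covers counting error only. The difference in mean ln value, 0.53 ± 0.15, did not pass (limma, adjusted p = 0.19), except without injured library 1 (0.92, adjusted p = 7.7e-07). Apoc2, the activator of lipoprotein lipase, held 0 UMIs in all 4 optic nerve libraries and 7 UMIs in 3 cells of injured retina pool 1+2. Of the 4 neighbouring apolipoprotein genes, it was the 1 with no UMI in the nerve. Because Apoc2 overlaps Gm44805, that 0 is not read as absence of its RNA.

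Lpl, the lipase that frees fatty acids from lipoprotein triglycerides, had 442 and 952 CPM in injured optic nerve libraries 1 and 3, against 39.9 and 35.7 CPM in uninjured libraries 2 and 4 (17 UMIs in all). The 2 uninjured libraries lay close together and far below both injured ones. The means were 697 ± 361 CPM in injured and 37.8 ± 2.96 CPM in uninjured optic nerve (SD, n = 2 each), an 18.5-fold difference. Lpl rose on both scales, with a mean ln value 0.80 ± 0.17 higher (limma, adjusted p = 0.033) and a log2 fold change of 4.42 in edgeR (adjusted p = 0.010). The limma call was lost without injured library 3 (0.42, adjusted p = 0.35), uninjured library 2 or 4 (adjusted p = 0.20 and 0.18), or retina pool 1+2 or 3+4 (adjusted p = 0.085 and 0.082).

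The 2 efflux transporters had the same order of libraries but did not pass limma. Abca1 had 286 and 551 CPM in injured optic nerve, against 93.9 and 47.6 CPM in uninjured optic nerve. Abcg1, which moves cholesterol onto lipoprotein particles, had 94.1 and 196 CPM in injured optic nerve, against 17.1 and 0 CPM in uninjured optic nerve, where it held 6 UMIs. The groups overlapped for neither gene. The differences in mean ln value were 0.62 ± 0.16 for Abca1 (limma, adjusted p = 0.099) and 0.35 ± 0.10 for Abcg1 (adjusted p = 0.19), and without injured library 1 both were called (0.93, adjusted p = 0.00051, and 0.56, adjusted p = 0.00082). In edgeR Abcg1 was called (log2 fold change 3.73, adjusted p = 0.047), and Abca1 did not pass (2.67, adjusted p = 0.0503). Thinning each cell to 1000 UMIs, which leaves out 297 shallower cells, brought the limma value of Abca1 to 0.77 (adjusted p = 0.045), while Apoc1 and Lpl were then no longer called (adjusted p = 0.21 and 0.20).

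Among the storage genes, Plin2 had 210.2 and 498 CPM in injured optic nerve, against 119.5 and 35.7 CPM in uninjured optic nerve. Soat1 had 100.4 and 188 CPM in injured optic nerve, against 93.9 and 11.9 CPM in uninjured optic nerve. The groups did not overlap for either gene, although for Soat1 the nearest libraries almost met, and with 2 libraries in each group this order is a description only. Plin2 differed by 0.50 ± 0.16 (limma, adjusted p = 0.28) and Soat1 by 0.19 ± 0.13 (adjusted p = 0.77) in mean ln value, and without injured library 1 Plin2 was called (0.86, adjusted p = 0.00086). Ch25h had 25.1 and 57.7 CPM in injured optic nerve, against 17.1 and 118.9 CPM in uninjured optic nerve. Its groups overlapped. It was outside the filter of the limma test, and edgeR on recovered counts tested it and did not call it (log2 fold change 0.15, adjusted p = 1.0).

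In the optic nerve limma called 30 of 5298 genes (0.566%), 19 higher and 11 lower in injured tissue. Of the 10 genes 8 were tested, and 3 of these (Apoe, Apoc1 and Lpl) were called higher and none lower. All 8 had a difference above 0, with a median of 0.58, against a median of -0.02 over all tested genes. The filter kept genes found in 10% of cells or more and so favours genes seen in injured library 3, which held 682 of the 1168 cells, so the count and the median describe the genes that passed and support nothing. By edgeR on recovered counts 22 of 5705 genes were called (0.386%), among them Apoc1, Lpl and Abcg1.

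**Figure D2:**
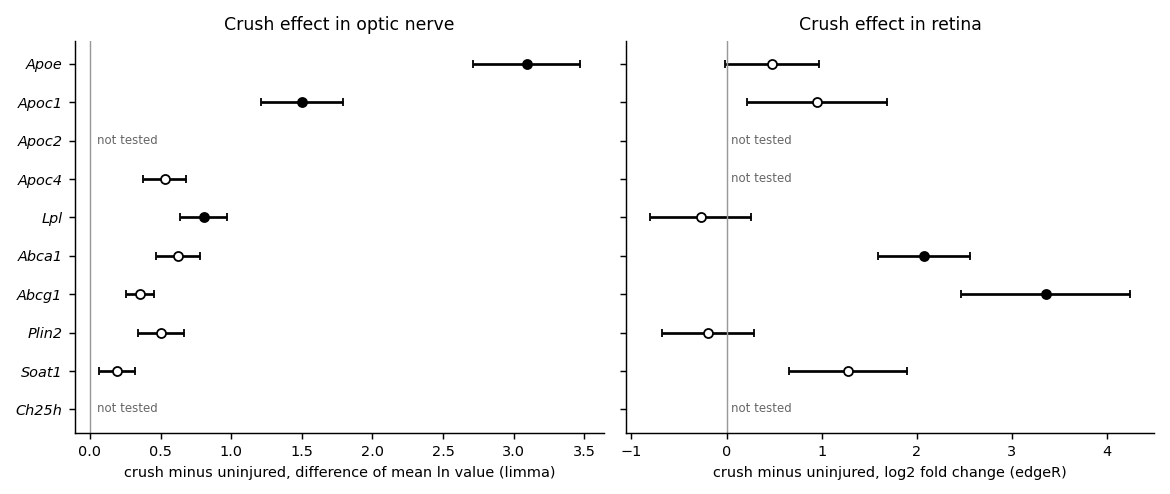
Effect of crush on each tested gene in optic nerve (difference of mean ln value, limma) and in retina (log2 fold change, edgeR), each with its standard error; the 2 panels have different scales. In the optic nerve Apoe stands at 3.09, Apoc1 at 1.50 and Lpl at 0.80, and in the retina Abcg1 at 3.35 and Abca1 at 2.07.

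The makeup of the nerve libraries differed as well. In border macrophage markers the injured and uninjured groups overlapped, and uninjured library 2 alone stood apart. Of 10 border macrophage markers, 10 and 9 (Lyve1 at 0) held UMIs in injured libraries 1 and 3, at summed levels of 1566 and 844 CPM, against 10 and 9 (Clec10a at 0) in uninjured libraries 2 and 4, at 4950 and 808 CPM. With border macrophage-like, endothelial-like, oligodendrocyte-like and T-like cells all left out, 31 of the 103 cells of uninjured library 2 remained. The limma differences were then 4.18 for Apoe (adjusted p = 2.9e-11), 1.70 for Apoc1 (0.0016), 0.78 for Lpl (0.022), 0.88 for Abca1 (0.0052) and 0.65 for Plin2 (0.046). Those of Apoe, Apoc1, Abca1 and Plin2 were larger than with all cells, and that of Lpl was about as large. This setting was not planned, here or in the other comparisons. It called 91 of 5298 genes, 38 higher and 53 lower, against 30 with all cells. What the makeup of the libraries adds to the differences was not tested. Astrocyte markers, all 8 of which held UMIs in each nerve library, summed to 646 and 264 CPM in injured and 1141 and 1581 CPM in uninjured optic nerve. 1 of the 8, Slc1a3, was among the 10 leading genes of cluster 5, which is described further on, so the sum is not of astrocytes alone. What RNA from astrocytes adds to the level of Apoe was not tested.

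In the retina, which holds the cell bodies of the crushed axons, the called genes were the transporters. Abca1 had 139 and 212 CPM in injured retina pools 1+2 and 3+4, against 42.0 and 35.2 CPM in uninjured libraries 5 and 6. Abcg1 had 53.5 and 54.7 CPM in injured retina, against 7.003 and 0 CPM in uninjured retina, where it held 1 UMI. For both genes the injured pools lay above the uninjured libraries. Abca1 rose by 2.07 ± 0.48 on the log2 scale (edgeR, adjusted p = 0.014) and Abcg1 by 3.35 ± 0.89 (adjusted p = 0.024). The test called 653 of 3312 genes (19.7%), 331 higher and 322 lower, so 2 calls among the 7 genes tested here are near the background. Abca1 stayed called with any 1 of the 4 retina libraries left out. Abcg1 was not called without uninjured library 5 (edgeR, adjusted p = 0.075) and was not tested without either injured pool. On mean ln values neither passed (limma, adjusted p = 0.055 for Abca1 and 0.11 for Abcg1).

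Soat1 had 99.2 and 119 CPM in injured retina, against 63.0 and 0 CPM in uninjured retina. Its log2 difference of 1.28 ± 0.62 did not pass (edgeR, adjusted p = 0.16), except without uninjured library 5 (adjusted p = 0.0037), where the remaining library held no UMI. The other genes overlapped between the retina groups. Lpl had 65.5 and 32.2 CPM in injured and 56.03 and 88.0 CPM in uninjured retina (log2 -0.27 ± 0.53, edgeR adjusted p = 0.75). Plin2 had 55.6 and 64.3 CPM in injured and 49.0 and 105.6 CPM in uninjured retina (log2 -0.19 ± 0.48, edgeR adjusted p = 0.81). For these 2 genes 1 uninjured library had the highest value of the 4. Apoc1 had 81.6 and 38.6 CPM in injured and 49.0 and 0 CPM in uninjured retina (log2 0.95 ± 0.73, edgeR adjusted p = 0.39), and it was called without uninjured library 5 (adjusted p = 0.037), the remaining library again holding no UMI. Apoc4 had 10.6 and 16.1 CPM in injured and 119 and 0 CPM in uninjured retina, and Ch25h had no UMI in injured retina and 28.01 and 0 CPM in uninjured retina. Neither passed the filter of the test, and in each the uninjured UMIs came from library 5 alone. For Apoc4 these were 17 UMIs, found in a mean of 3.23% of the cells of the uninjured libraries, so its fits rest on few cells. Without the filter edgeR called Apoc4 lower (log2 -2.50, adjusted p = 0.0027), as it did without uninjured library 6 (-3.32, adjusted p = 0.00018), but not over both tissues (-2.63, adjusted p = 0.25) or without either injured pool (adjusted p = 0.15 and 0.19).

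The value of Apoe in the retina depended on how cells were weighed. It had 22927 and 14632 CPM in injured retina, against 19883 and 6545 CPM in uninjured retina, and the groups overlapped. Summed counts gave a log2 difference of 0.47 ± 0.49 (edgeR, adjusted p = 0.53). On mean ln values, which called 899 of 5298 genes (17.0%), Apoe was higher in injured retina by 2.03 ± 0.38 (limma, adjusted p = 0.0016). 1 cell of uninjured library 5 held 1163 of that library's 2839 Apoe UMIs (41.0%), and without it the level of the library was 12799 CPM. In edgeR the difference was 1.84 (adjusted p = 9.7e-14) without uninjured library 5 and -0.13 (adjusted p = 0.66) without library 6.

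Cells with at least 1 Apoe UMI were 77.1% and 57.9% of injured retina, against 41.9% and 33.3% of uninjured retina. In the injured pools all 32578 and 4549 Apoe UMIs lay in the 85 and 33 cells of 1 cluster. T and NK cell-like cells, 22 with a median of 4527 UMIs and 24 with a median of 1837, held none. That allows up to 13.6% and 12.5% of such cells to hold a UMI, for counting error only, and does not limit the share that expresses the gene. Without T-like cells the shares were 96.6% and 100% in injured retina, against 41.9% and 33.3% in uninjured retina, which held no such cells. With each cell thinned to 1000 UMIs, the shares over all cells were 76.6% and 56.03% in injured and 32.0% and 22.3% in uninjured retina.

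In the optic nerve the corresponding shares were 97.9% (exact 95% interval 94.1 to 99.6%) and 99.9% (99.2 to 100%) of injured cells, against 86.4% (78.2 to 92.4%) and 57.1% (37.2 to 75.5%) of uninjured cells. Thinned, they were 95.7% and 98.3% of injured and 79.7% and 57.0% of uninjured cells, in the same order. All 8 endothelial-like cells of the nerve (median 4456 UMIs) also held an Apoe UMI, so the share of cells with a UMI is not above that background and is not read as expression. Their Apoe level was 786 CPM in injured library 3, against 3831 and 3529 CPM in uninjured libraries 2 and 4, below that of the library as a whole in each case. The median share of a cell's UMIs that were Apoe was 5.41% and 8.06% in injured optic nerve, against 0.752% and 0.112% in uninjured optic nerve, 1.78% and 0.595% in injured retina and 0% and 0% in uninjured retina. The highest cells reached 29.3% and 27.7% in injured optic nerve.

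Cells with at least 1% of their UMIs in Apoe were 129 of 146 and 616 of 682 in injured optic nerve, against 48 of 103 and 4 of 28 in uninjured optic nerve. In the retina they were 70 of 109 and 24 of 57 in the injured pools, against 6 of 31 and 2 of 12 in uninjured libraries. Apoe was thus spread over most cells of the injured nerve and kept to a minority of cells in uninjured retina, where these 6 and 2 cells held 98.3% and 99.2% of all Apoe UMIs. In uninjured optic nerve library 2 the Apoe-rich cells summed to 7172 CPM of the 10 border macrophage markers and 2602 CPM of the 10 microglia markers, and the other cells to 448 and 9113 CPM. In library 4 the 4 Apoe-rich cells had 3193 CPM of border macrophage markers and 4064 CPM of microglia markers, and the other 24 had 31.5 and 10007 CPM, but 1 of those 4 cells held all of the border marker UMIs among them. The border macrophage markers were thus higher in the Apoe-rich cells of both uninjured libraries, in library 4 through that 1 cell. In injured optic nerve libraries 1 and 3 the Apoe-rich cells had 1577 and 864 CPM of border markers and 7651 and 7229 CPM of microglia markers. The microglia list was the higher of the 2 in the Apoe-rich cells of these libraries and of uninjured library 4, and the border list in those of uninjured library 2.

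**Figure D3:**
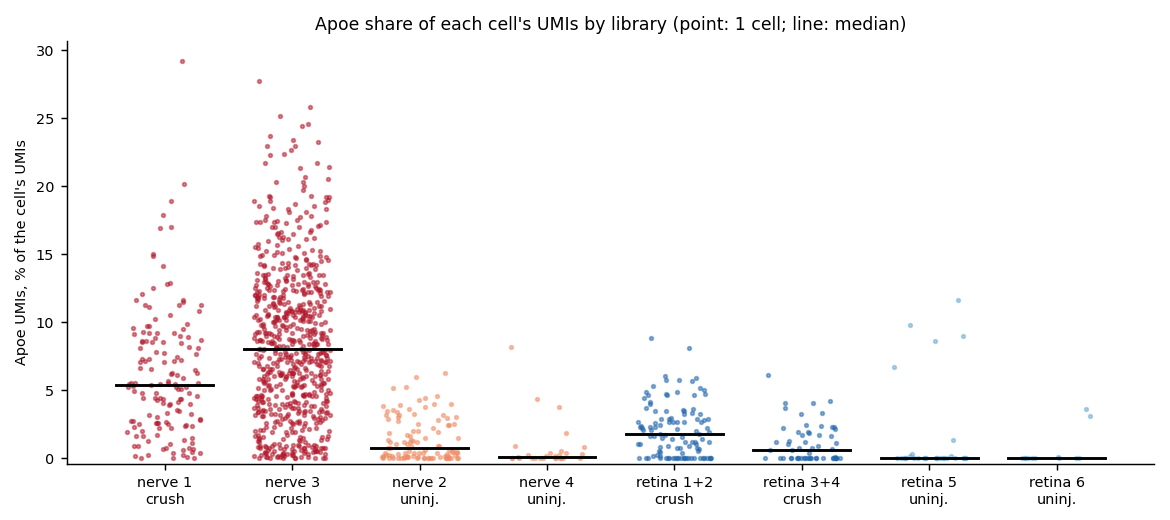
Apoe UMIs as a percent of each cell's UMIs (linear axis), by library; each point is 1 cell and each line the median. The medians are 5.41% and 8.06% in injured optic nerve and at most 1.78% in every other library, and a few cells of uninjured retina stand far above a median of 0%.

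Beside Apoe, 3 or more of the other 9 genes held a UMI in the same cell in 16.4% and 65.4% of injured optic nerve cells, against 7.77% and 0% of uninjured optic nerve cells. In the retina the shares were 48.6% and 26.3% of injured and 9.68% and 0% of uninjured cells. The 2 injured nerve libraries differed in this as in the level of Apoc1. Apoc1 was found in 30.1% and 72.4% of injured optic nerve cells, against 2.91% and 3.57% of uninjured ones. Lpl was found in 24.7% and 55.3% of injured and 5.83% and 7.14% of uninjured optic nerve cells. Abca1 was found in 29.5% and 57.3% of injured and 23.3% and 10.7% of uninjured optic nerve cells, and after thinning in 24.7% and 37.7% of injured and 9.72% and 5.46% of uninjured ones. In the retina Abca1 was found in 55.0% and 42.1% of injured and 12.9% and 8.33% of uninjured cells, which thinning brought to 11.3% and 13.9% of injured and 2.14% and 1.86% of uninjured cells. In both tissues each injured share stayed above each uninjured one.

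Cells were clustered without the 10 genes and without the related lipid genes. Outside the border macrophage-like, oligodendrocyte-like and T-like clusters, most injured nerve cells fell into 3 clusters that were not named: cluster 4, led by Gpnmb and Ms4a7 (162 of its 166 cells from injured library 3, median 20231.5 UMIs), cluster 5, led by Tnfaip2 (159 cells), and cluster 6, led by Cxcl13 and Cst7 (441 cells, median 961 UMIs). In injured library 3 Apoe had 109089, 87903 and 89240 CPM in clusters 4, 5 and 6, against 28756 CPM in border macrophage-like and 29923 CPM in oligodendrocyte-like cells. In injured library 1 it had 65820 and 82860 CPM in clusters 5 and 6, 40090 CPM in border macrophage-like and 13077 CPM in oligodendrocyte-like cells. Apoe was therefore high in all 3 unnamed clusters, whatever their depth. In uninjured library 2 the order was the other way: 31403 CPM in border macrophage-like cells and 3081 and 12351 CPM in clusters 5 and 6, and border macrophage-like cells held 85.5% of the Apoe UMIs of library 2. Uninjured library 4 had 23843 CPM in its 12 cells of cluster 5. Of these, 1 cell held 769 of the 789 Apoe UMIs of the cluster and of the 1297 of the library. Without that cell the level of the whole library was 7069 CPM, against 15418 CPM with it. The Apoe level of border macrophage-like cells was 28756 CPM (33 cells) and 40090 CPM (9 cells) in injured libraries 3 and 1, against 31403 CPM (44 cells) in uninjured library 2.

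The other genes were shared out less evenly. In injured library 3 Apoc1 had 4384, 3456 and 3895 CPM in clusters 4, 5 and 6, against 27.3 CPM in border macrophage-like cells. For every 100 Apoe UMIs there were 4.02, 3.93 and 4.37 Apoc1 UMIs in those clusters and 0.0949 in border macrophage-like cells of the same library. In its 49 oligodendrocyte-like cells the ratio was 6.13 (200 Apoc1 UMIs), so Apoc1 was not particular to clusters 4, 5 and 6. In injured library 1 the ratio was 0.282 in cluster 5 and 1.005 in cluster 6, and in the injured retina pools 0.356 and 0.264. Lpl had 784, 1858 and 1098 CPM in clusters 4, 5 and 6 of injured library 3, against 38.2 CPM in border macrophage-like cells. In injured library 1 it had 809 CPM in cluster 5 and 288 CPM in cluster 6, and 0 UMIs in border macrophage-like cells. Cluster 5 had the highest Lpl level in both injured libraries. The same held for Abca1, with 919 CPM in cluster 5 against 517 and 267 CPM in clusters 4 and 6 of injured library 3, and 401 against 164 CPM in clusters 5 and 6 of injured library 1. Plin2 did not follow this order: it had 571, 360 and 469 CPM in clusters 4, 5 and 6 of injured library 3. In injured library 1 Plin2 was highest in border macrophage-like cells, at 607 CPM, which held 46.3% of its UMIs there. These are sums over cells of single libraries, and no test was made.

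**Figure D4:**
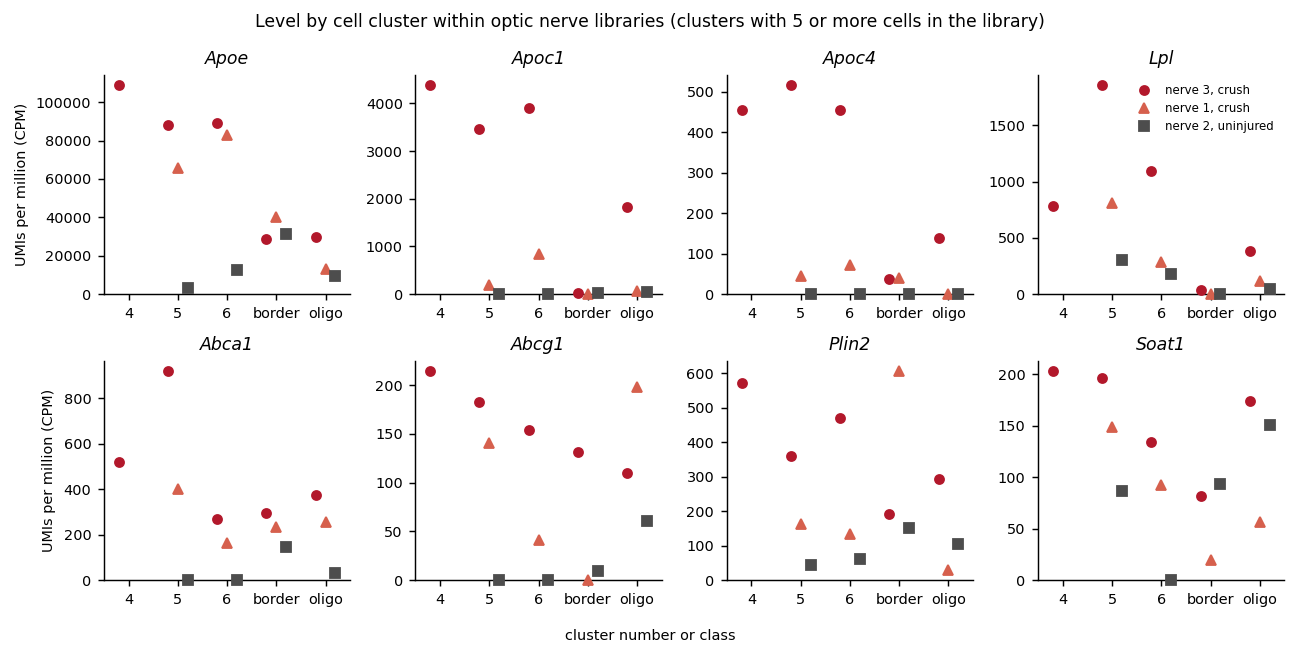
Level in CPM (linear axes) of each gene by cell cluster within optic nerve libraries; each point is 1 cluster with 5 or more cells in that library. Apoc1 is near 0 in border macrophage-like cells and at 3456 to 4384 CPM in clusters 4 to 6 of injured library 3. Oligodendrocyte-like cells of that library held Apoc1 too. Lpl and Abca1 are highest in cluster 5 of both injured libraries.

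Of the 10 genes, limma on all 8 libraries and all cells called Lpl alone as different between tissues in its response to crush, and on mean ln values it was called in 3 of 13 settings. The injury effect on mean ln value was 0.80 in the optic nerve and -0.06 in the retina, a difference of 0.87 ± 0.24 (limma interaction, adjusted p = 0.040), in a test that called 297 of 5298 genes (5.61%), 90 higher and 207 lower. By edgeR on recovered counts the difference was 4.76 on the log2 scale (adjusted p = 0.025). The limma call was lost without injured nerve library 3 (0.49, adjusted p = 0.12), uninjured nerve library 2 or 4 (adjusted p = 0.12 for each), retina pool 1+2 or 3+4 (adjusted p = 0.085 and 0.15) or uninjured retina 6 (adjusted p = 0.063). It was also lost with endothelial-like, oligodendrocyte-like and T-like cells left out (0.81, limma adjusted p = 0.066) and with cells thinned (0.69, adjusted p = 0.26). For Apoc1 the effect was 1.50 in the nerve and 0.15 in the retina, and the difference of 1.35 ± 0.41 did not pass (limma, adjusted p = 0.061). For Apoe the effects were 3.09 and 2.03, with a difference of 1.06 ± 0.53 (limma, adjusted p = 0.24). With endothelial-like, oligodendrocyte-like and T-like cells left out the difference for Apoe was -0.24 (limma, adjusted p = 0.83), and with border macrophage-like cells left out as well it was 0.53 (adjusted p = 0.37). For Abca1 (0.17 ± 0.22, limma adjusted p = 0.67) and Abcg1 (0.12 ± 0.14, adjusted p = 0.66) no difference between tissues was detectable. Single settings called other genes as well. These were Apoc1 (2.13, limma adjusted p = 1.1e-07), Apoc4 (0.94, adjusted p = 3.5e-05) and Plin2 (0.89, adjusted p = 0.0071) without injured nerve library 1, and Apoe without uninjured nerve library 2 (1.84, adjusted p = 0.047). Apoc1 was also called with border macrophage-like cells and the other cell types left out (1.46, limma adjusted p = 0.043), and Apoc4 by DESeq2 (log2 10.34, adjusted p = 0.039).

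Comparing injured optic nerve with injured retina, 4 of the 8 tested genes were higher in the nerve, where limma called 713 of 5298 genes (13.5%), 40 higher and 673 lower. The filter favours genes seen in injured nerve library 3, so this count describes the genes that passed and supports nothing. Apoc4 was found in a mean of 26.7% of injured nerve cells. The means were 7.64% in injured retina, 3.23% in uninjured retina and 0% in uninjured nerve, so Apoc4 passed the filter through injured nerve. This comparison shares its injured nerve libraries with the crush effect above. Apoe (2.63 ± 0.38, limma adjusted p = 0.00045) was called in each of the 16 settings tried on mean ln values. Leaving out endothelial-like, oligodendrocyte-like and T-like cells, the last of which held no Apoe in the retina pools, brought it to 1.26 (limma, adjusted p = 0.027). Apoc1 (1.38 ± 0.29, limma adjusted p = 0.0062), Lpl (0.74 ± 0.17, adjusted p = 0.0094) and Apoc4 (0.47 ± 0.15, adjusted p = 0.046) were called too. The tissues differed in depth, with medians of 1078 and 2060.5 UMIs per cell in injured nerve against 12989 and 3853 in injured retina. With each cell thinned to 1000 UMIs limma called 22 of 5298 genes in place of 713, so most calls here depended on depth or on the cells kept. On mean ln values these 3 were called in 12, 11 and 9 of the 16 settings. On the log2 scale (edgeR, DESeq2 and limma on log2 CPM) Apoe and Apoc1 were called in 2 of 4 settings, Apoc4 in 1 and Lpl in all 4. Without injured nerve library 3 Apoc1 stood at 0.59 (limma, adjusted p = 0.0047), and Lpl (0.36, adjusted p = 0.11) and Apoc4 (0.077, adjusted p = 0.42) were lost. Without injured nerve library 1 Apoc1 stood at 2.16, Lpl at 1.12 and Apoc4 at 0.86. Without retina pool 1+2 or 3+4 the calls of Apoc1 (limma, adjusted p = 0.054 and 0.065), Lpl (0.052 and 0.089) and Apoc4 (0.23 and 0.17) were lost, and that of Apoc4 also without uninjured nerve 2 or 4 (0.083 and 0.074). Ch25h held 310 UMIs in injured optic nerve and 0 in injured retina, at least 32.2-fold more of the summed UMIs by the limit of 3 counts over the group, and at least 14.5-fold in the lower of the 2 nerve libraries. On recovered counts edgeR called it higher in the nerve (adjusted p = 0.0082), and limma without a filter did not (adjusted p = 0.18).

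Between uninjured optic nerve and uninjured retina limma called 531 of 5298 genes (10.0%), 94 higher and 437 lower. Of the 8 tested genes Apoe alone was called, higher in the nerve by 1.57 ± 0.38 (limma, adjusted p = 0.013). It was lost without uninjured nerve library 2 (0.79, limma adjusted p = 0.21), the library with 42.7% border macrophage-like cells, and without uninjured retina 6 (1.32, adjusted p = 0.071), while it stood at 2.34 without uninjured nerve 4. With border macrophage-like cells left out along with the other cell types it was 0.77 (limma, adjusted p = 0.035), and summed counts gave a log2 difference of 0.34 (edgeR, adjusted p = 0.81).

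The other genes of the pathway were grouped in 7 lists of 8 to 20 genes. In the optic nerve limma called none of them in either direction. The list of sterol synthesis and oxysterol enzymes stood lowest: its 4 tested genes had differences below 0, with a median of -0.22, against -0.02 over all genes. Its 17 genes summed to 301 and 159 CPM in injured optic nerve, against 1039 and 868 CPM in uninjured optic nerve. In edgeR on recovered counts all 9 tested genes of this list were below 0, with a median log2 fold change of -2.47 against 0.00 over all genes. The filter of that test can keep a gene for its counts in a single group, and so can favour genes high in uninjured optic nerve. That all 9 lay below 0, and their median, therefore describe the genes that passed and support nothing. 3 of the 9 fell, where the test called 0.386% of all genes: Hmgcs1 (-2.47, edgeR adjusted p = 0.041), which starts the pathway to mevalonate, Fdps (-3.04, adjusted p = 0.047), which makes farnesyl diphosphate, and Msmo1 (-2.25, adjusted p = 0.047), which removes methyl groups from sterols. Hmgcs1 had 37.7 and 23.1 CPM in injured optic nerve, against 176 and 190.2 CPM in uninjured optic nerve, with no overlap.

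Oligodendrocytes, which make much sterol for myelin, moved with this list. All 10 oligodendrocyte markers held UMIs in each nerve library, and they summed to 6037 and 1216 CPM in injured optic nerve, against 11949 and 8393 CPM in uninjured optic nerve. Sterol genes summed to 908 and 376 CPM in oligodendrocyte-like cells of injured libraries 1 and 3, against 2652 and 4741 CPM in those of uninjured libraries 2 and 4. Leaving out endothelial-like, oligodendrocyte-like and T-like cells, the list summed to 226 and 155 CPM in injured optic nerve, against 672 and 560.3 CPM in uninjured optic nerve. In edgeR its 8 tested genes then all lay below 0, with a median of -1.84, and none was called. The limit of the filter given above holds for these 8 as well.

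Of the other lists in the optic nerve, lysosomal cholesterol handling had 8 of 8 tested genes above 0 in edgeR, with a median log2 fold change of 0.71 and none called, whereas 4 of 9 were above 0 in limma. Among the uptake receptors Trem2, a lipid receptor of microglia that also binds apolipoproteins, had 1387 and 2338 CPM in injured optic nerve, against 527 and 559 CPM in uninjured optic nerve. It was called by edgeR (log2 2.04, adjusted p = 0.049) and not by limma (0.92 ± 0.30, adjusted p = 0.27), nor by edgeR with endothelial-like, oligodendrocyte-like and T-like cells left out (log2 1.53, adjusted p = 0.10). Fabp3 and Fabp5, which carry fatty acids in the cell, had limma differences of 0.20 ± 0.05 (adjusted p = 0.10) and 0.63 ± 0.21 (adjusted p = 0.30). The LXR gene Nr1h2 had 78.4 and 45.3 CPM in injured and 65.5 and 71.3 CPM in uninjured optic nerve, and Nr1h3 held 29 UMIs in the whole table. In the LXR and sterol regulator list 3 of 9 tested genes were above 0 in limma and 6 below.

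In the retina edgeR called 5 genes of these lists, with 4, 2, 5, 5 and 2 genes tested in 5 of the lists and none in the other 2, against 19.7% called over all genes. Trem2 fell by 1.47 on the log2 scale (edgeR, adjusted p = 0.0028), with 685 and 701 CPM in injured retina, against 1807 and 2129 CPM in uninjured retina. Insig1, which holds the sterol sensor in the endoplasmic reticulum, fell by 1.85 (edgeR, adjusted p = 0.017), and Stard3, a cholesterol-binding protein of late endosomes, fell by 1.88 (adjusted p = 0.0090). Sorl1, a sorting receptor that binds apolipoprotein E, rose by 2.34 (edgeR, adjusted p = 0.041), and the corepressor gene Ncor1 rose by 1.27 (adjusted p = 0.030). No gene of the sterol synthesis list was tested in the retina, where it summed to 184 and 177 CPM in injured and 245 and 352 CPM in uninjured libraries. In the injured tissues limma called Fabp3 higher in nerve (0.17, adjusted p = 0.036) and Sorl1 (-0.35, adjusted p = 0.010) and Ncor1 (-0.57, adjusted p = 0.012) lower. In the uninjured tissues Srebf2 (0.32, limma adjusted p = 0.014), Abca2 (0.28, adjusted p = 0.017) and Pltp (0.36, adjusted p = 0.032) were higher in nerve, and Trem2 (-1.61, adjusted p = 0.0019) and Stard3 (-0.53, adjusted p = 0.0031) were lower.

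**Figure D5:**
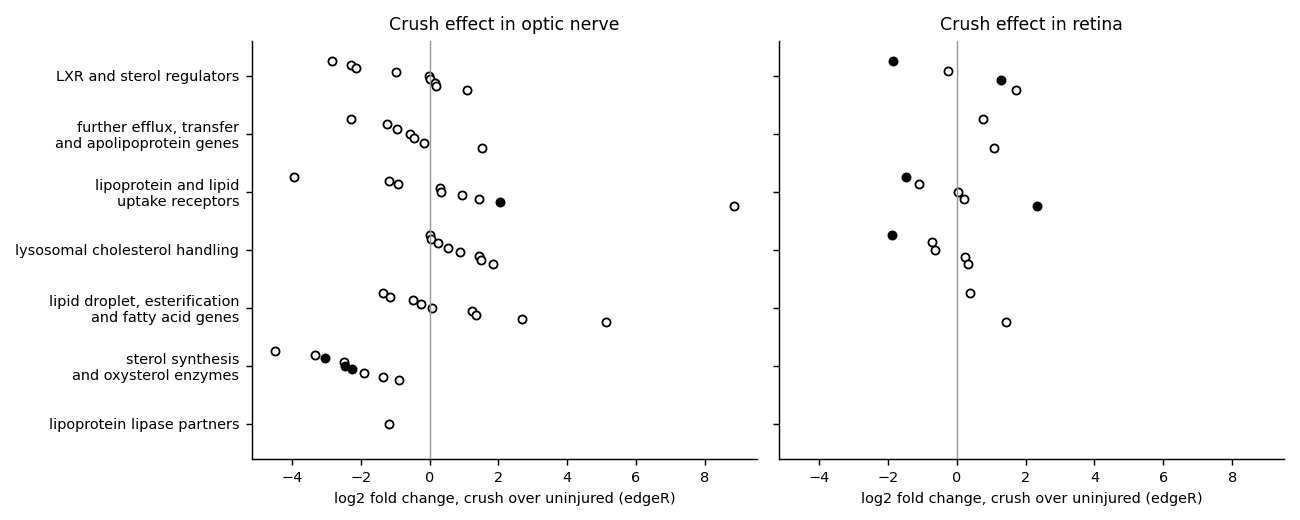
Log2 fold change, crush over uninjured (edgeR), of each tested gene of the 7 related lists, for optic nerve and for retina. In the optic nerve all 9 tested sterol synthesis genes lie below 0, with a median of -2.47, and all 8 lysosomal cholesterol genes lie above 0, with a median of 0.71, which on mean ln values holds for 4 of 9. The filter can keep a gene for its counts in a single group, so these directions describe the tested genes only. Filled points passed an adjusted p of 0.05.

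For the 8 genes that passed the filter in limma, the 3 other genes with the nearest profile were found from the mean ln value in 8 libraries, each centred on its own mean, by the mean absolute difference. Lyz2 (0.97) and Spp1 (0.98) were nearest to Apoe, whose own mean absolute deviation was 1.52. Apoc1 was followed most closely by Cxcl14 (0.15) and Spp1 (0.21), Apoc4 by Cst7 (0.045) and Gpnmb (0.050), and Lpl by Pld3 (0.081), Igf1 (0.086) and Gpnmb (0.088). Abca1 was nearest to Lgals3 (0.096) and Cst7 (0.11), Abcg1 to Apobec1 (0.042) and Cap1 (0.046), Plin2 to Anxa5 (0.047) and Vat1 (0.090), and Soat1 to Bcl2l11 (0.053) and Ms4a6d (0.070). The third in order was Cxcl14 for Apoe, Ctsb for Apoc1, Myo1e for Apoc4, Fabp5 for Abca1, Itgax for Abcg1, Pld3 for Plin2 and Ifi207 for Soat1. Several of these, such as Spp1, Gpnmb, Cst7, Igf1, Lgals3, Fabp5 and Itgax, are markers of disease-associated microglia, a state known from degenerating brain. The sum of 8 markers of that state leaves out Fabp5, which belongs to a related list. It was 3131 and 20108 CPM in injured optic nerve, 806 and 749 CPM in uninjured optic nerve, 2047 and 1888 CPM in injured retina and 2514 and 528 CPM in uninjured retina. Injured optic nerve library 3 had the highest sum of the 8 libraries, and the likeness was not computed without it.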

How the data were processed

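Single-cell RNA was sequenced in droplets from macrophages and microglia of retina and optic nerve. Cell Ranger 1.3, bcl2fastq 2.17.1.14, Seurat 4.0.3 and the build mm10 are named per the submitters' processing notes, and the design text gives a filter of 200 to 6500 genes per cell and integration with harmony. The stated 1168 cells equal those of the table.

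For retina the deposited values are raw UMI counts. For optic nerve the authors deposited natural log values, ln(1 + 10000 × UMIs / the cell's total). All 1374534 nerve values above 0 gave whole UMIs within 0.01 (100%), a median of 96.6% of a nerve cell's total UMIs being in the table. Retina counts were put on the same ln scale.

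Crush in the retina was tested on UMIs summed per library with edgeR 4.0.16 (quasi-likelihood, TMM, filterByExpr, 4 libraries, 3312 genes). The 4 other comparisons took the mean ln value of each of 8 libraries into limma 3.58.1 with a trended prior, for 5298 genes with a UMI in 10% or more of cells, and edgeR on recovered counts as an alternative (5705 genes). P-values were adjusted by Benjamini-Hochberg over all genes tested, with a threshold of 0.05. DESeq2 1.42.0 was a further alternative, and R was 4.3.3. Both fits were tested on simulated data.

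Cells were clustered with scanpy 1.11.5 without the 10 genes and the related lipid genes (2000 variable genes, 30 components, 15 neighbours, Leiden resolution 0.5). A name needed 2 markers among the top 10 genes and 3 among the top 50, and endothelial-like cells 5 of 10 markers. No doublet caller was run. Intervals are exact Clopper-Pearson at 95%, the limit for 0 is 3 counts and both cover counting error only. Thinning to 1000 UMIs left out 297 cells.

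The 10 genes and the 7 lists were chosen with earlier results of these data known. The text names all 10 genes, those of the lists that passed a test, and a few others with their values, which were picked after these were seen (Nr1h2, Nr1h3 and Fabp5). The genes most like each were those with the smallest mean absolute difference over libraries.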

Additional observations from a re-analysis of the deposited data

Results flagged for a closer look

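The effect of crush differed between optic nerve and retina, by the limma interaction on mean ln values over 8 libraries, for Lpl and for 5 genes of the related lists. For Lpl the nerve effect minus the retina effect was 0.87 ± 0.24 (SE; limma, adjusted p = 0.040). For Trem2, the lipid receptor of microglia, it was 2.41 ± 0.42 (limma, adjusted p = 0.0039), and edgeR called it higher after crush in the nerve and lower in the retina. For Lamp1, a membrane protein of lysosomes, it was 1.33 ± 0.38 (limma, adjusted p = 0.048). It lay below 0 for Srebf2, which encodes a regulator of sterol synthesis (-0.55 ± 0.11, limma adjusted p = 0.0084), for Ncor1 (-0.85 ± 0.19, adjusted p = 0.019) and for Sorl1 (-0.52 ± 0.11, adjusted p = 0.015). Groups of 2 libraries are too small to test a single library for standing apart.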

How the results depend on the processing

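Each group has 2 libraries, so calls depend on single libraries and on how cells are weighed. Of 632 values of the 10 genes under an alternative, 500 kept direction and side of the threshold, 29 became called, 67 lost the call and 36 changed sign. The cause of these changes was not tested.

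The number of genes called moved most. For crush in the nerve (30), limma called 9 after thinning, 1 and 4 on log2 CPM (prior counts 0.5 and 2), 1 without the filter and 91 without border macrophage-like and other cell types. DESeq2 called 69, and edgeR called 17 without endothelial-like, oligodendrocyte-like and T-like cells and 74 when border macrophage-like cells were left out too. The count was 7 to 67 with 1 library left out. For crush in the retina (653) it was 341 by DESeq2, 208 by edgeR over both tissues, 899 by limma (623 higher and 276 lower) and 415 to 699 with 1 library left out (428 without pool 1+2, 415 without pool 3+4). Without a filter the median of all genes was 0.52 in place of 0.07. For the difference between tissues (297) it was 37 thinned, 116 by DESeq2, 49 by edgeR (25 higher and 24 lower), 36 and 49 on log2 CPM, 28 without the filter and 86 to 541 with 1 library left out (157 without pool 1+2, 106 without pool 3+4). For injured nerve against injured retina (713) it was 22 thinned, 447 by DESeq2, 20 and 37 on log2 CPM, 440 without the filter and 143 to 1085 with 1 library left out (197 without pool 1+2, 290 without pool 3+4), and edgeR called 258 higher and 267 lower. For the uninjured tissues (531) it was 127 thinned, 244 by DESeq2, 186 by edgeR, 169 (116 higher and 53 lower) and 219 on log2 CPM and 227 to 907 with 1 library left out.

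Same-numbered libraries of the injured groups had a correlation of deviations of -0.182 over 5298 genes. Nerve library 1 was the shallower of its group (median 1078 against 2060.5 UMIs per cell), and pool 1+2 the deeper of its own (12989 against 3853). With 2 libraries in each group, the correlation cannot decide whether the replicate numbers pair the libraries. With injured libraries alone limma called 530 genes with a replicate block and 1168 with no block. A block with the numbers crossed, chosen after seeing the data, gave 1818.

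Values of the 10 genes that changed sign, of which none was called, were the following, with the range over libraries left out. In the retina these were Apoe (-0.13 without uninjured 6, range -0.13 to 1.84), Lpl (0.14 without pool 3+4, range -0.96 to 0.14) and Plin2 (0.012 without a filter, 0.0011 without pool 1+2, 0.21 without uninjured 6, range -0.53 to 0.21). For the difference between tissues these were Apoe (-0.24 without other cell types), Abca1 (-0.14 without injured nerve 3 to 0.48), Abcg1 (-0.097 without injured nerve 3 to 0.33) and Soat1 (0.026 by edgeR, 0.0084 without injured nerve 1, 0.073 without uninjured nerve 2, 0.047 without uninjured retina 6, range -0.29 to 0.073). Between injured tissues these were Abca1 (-0.023 without injured nerve 3 to 0.60), Abcg1 (-0.084 without injured nerve 3 to 0.34) and Soat1 (0.093 thinned, 0.52 by DESeq2, 0.62 by edgeR, 0.38 at both priors, 0.059 without injured nerve 1, range -0.18 to 0.059). Between uninjured tissues these were Apoc1 (-0.022 thinned, -0.61 by DESeq2, -0.88 by edgeR, -0.011 without nerve 4, -0.018 without retina 6, range -0.018 to 0.081), Lpl (0.00087 thinned), Abca1 (-0.13 without border macrophage-like cells), Abcg1 (-0.018 without these or without nerve 2, -0.0055 without retina 6, range -0.018 to 0.044), Plin2 (0.27 by DESeq2, 0.33 by edgeR, 0.036 without nerve 4, range -0.23 to 0.036) and Soat1 (-0.042 without border macrophage-like cells, -0.13 without nerve 2, -0.11 without retina 6, range -0.13 to 0.23).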
